A study of Mus musculus with 4 samples.

Results

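The genes described here are the ligands and receptors of the TNF superfamilies in mouse colon, profiled on 4 one-color (Cy3) Agilent arrays. They were chosen by name. A probe was taken if its gene name on the array was Tnfsf or Tnfrsf followed by a number, or was Tnf, Lta, Ltb, Ltbr, Fas, Fasl, Cd27, Cd40, Cd40lg or Cd70. This gave 51 probes for 40 genes, 16 ligands and 24 receptors. For each gene the probe with the highest mean log2 signal was used, and the gene was kept if that probe was well above background on at least 1 array, which left 37 genes, 14 ligands and 23 receptors, of 22707 gene names kept on the whole array. Cd70, the ligand of Cd27, Tnfsf4, the ligand of the costimulatory receptor OX40, and Tnfrsf8, which encodes CD30, were not well above background on any array and are not described further. Of the 37 genes, 27 were well above background on all 4 arrays. A gene could be kept through the 1 array on which it was high, so the counts below describe the 37 kept genes and not the superfamilies as a whole.

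Each array held colon RNA pooled within 1 group of 42-week-old male mice, Pla2g3+/+ or Pla2g3-/-, on a B6.129 background of backcross generation 3. By the deposited description a pool came from 3 to 5 mice. Pla2g3 encodes a secreted phospholipase A2, an enzyme that releases fatty acids and lysophospholipids from phospholipids, and the null allele was carried by the whole animal. The AOM groups had received the colon carcinogen azoxymethane (AOM) intraperitoneally at 10 mg/kg every week for 6 weeks, and were killed 28 weeks after the last injection. The vehicle groups had received saline. By their labels the vehicle pools are colon and the AOM pools colorectal cancer tissue, whereas the study describes whole descending colons for all groups, so which tissue the AOM pools hold is not settled. Each group has a single array, so the comparison of any 2 arrays comes with neither a replicate check nor a p-value.

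TNF superfamily ligands are trimeric membrane proteins, many of which are also shed in soluble form, and they act on receptors with cysteine-rich repeats outside the cell. Some receptors carry a death domain and can start apoptosis. Others recruit TRAF adaptors and activate NF-κB and MAP kinases, and a few are decoys that bind a ligand and do not signal. In the gut, members of the families serve the build-up of lymphoid follicles, the costimulation of T cells, the survival of B and plasma cells, the turnover of the epithelium and the formation of M cells. Several of the genes lie side by side in the mouse genome. By gene order in GRCm38.p6, no other protein-coding gene lies between Ltb, Tnf and Lta, between Tnfrsf26, Tnfrsf22 and Tnfrsf23, between Tnfrsf4 and Tnfrsf18, between Tnfsf18 and Fasl, or between Tnfsf15 and Tnfsf8.

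Signals are given below as scaled signals, the processed intensity of the brightest probe as a percentage of the 75th percentile of its array. KO/WT is the signal of the array labelled Pla2g3-/- over that of the array labelled Pla2g3+/+ under the same treatment, and AOM/vehicle is the ratio within a genotype. A difference over 2-fold was counted. Where 1 array of a pair was not well above background, the fold was taken against the lowest signal well above background on that array, or its own signal if higher, and is written as "at least". The share of spots well above background was 64.8% to 69.4% per array. Replicate spots of a probe on an array had a median SD between 0.0574 and 0.0657 on the log2 scale, which covers the error of spots on 1 array and not that between mice. All ratios between pools are of tissue RNA, in which fewer cells of a type and less RNA per cell cannot be told apart.

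2 measurements of the arrays bear on how the ratios read. The targeted gene went against its label: the brightest probe of Pla2g3 (mm9, chromosome 11, 3394109 to 3394168) had scaled signals of 53.1% in Pla2g3+/+ and 65.6% in the pool labelled Pla2g3-/- with vehicle, and of 23.2% and 140% after AOM, which was 6.01-fold higher in the pool labelled Pla2g3-/-. The part of the gene that was deleted is not given in the sources used here, so it is unknown whether the probe lies outside it, and the genotype of each pool is taken from its label throughout. The array of Pla2g3+/+ after AOM also stood apart in tissue markers. The summed scaled signal of 8 smooth muscle genes, of which Tagln and Cnn1 were the brightest, was 49902% and 52505% with vehicle and 47708% in Pla2g3-/- after AOM, but 2909% in Pla2g3+/+ after AOM. Over 8 goblet cell genes, led by Zg16 and Agr2, the sum was 142680% and 135348% with vehicle, 16180% in Pla2g3+/+ after AOM and 54361% in Pla2g3-/- after AOM. For 9 Wnt target genes of colon tumors, led by Rnf43 and Nkd1, it was 849% and 829% with vehicle, 5355% in Pla2g3+/+ after AOM and 934% in Pla2g3-/- after AOM. In KO/WT after AOM, 8 of 8 smooth muscle and 6 of 8 goblet cell genes were over 2-fold higher and 8 of 9 Wnt targets over 2-fold lower. Of all genes, 14.4% were higher and 12.7% lower. Both KO/WT after AOM and AOM/vehicle in Pla2g3+/+ rest on that array, and the part of tissue make-up in their values was not tested.

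With vehicle, 1 family gene was past 2-fold between the labelled genotypes, whereas after AOM over 2-fold lower signals were found for most members with a value in the pool labelled Pla2g3-/-. In KO/WT with vehicle 0 of the 33 genes with a value were over 2-fold higher, against 2.23% of all genes, and 1 was over 2-fold lower, against 1.55% of all genes. In KO/WT after AOM, 2 of 36 were higher, against 14.4% of all genes, and 20 were lower, against 12.7% of all genes. The 20 lower genes comprised 8 of 13 ligands and 12 of 23 receptors with a value. Of these 20, 6 were bounds, not well above background on the array labelled Pla2g3-/-. Among them, Tnfsf11 and Tnfsf14 were kept only through the array of Pla2g3+/+ after AOM, so their direction followed from the filter. With both arrays required above background, 14 were lower and 2 higher, beside 2042 lower and 2392 higher of 19123 genes. The family's median log2 KO/WT was 0.04 with vehicle and -1.41 after AOM, and the medians over all genes were -0.03 and 0.02.

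In Pla2g3+/+, AOM went with higher signals of 16 of 36 genes, against 14.7% of all genes, and with lower signals of 9, against 23.0% of all genes. In the mice labelled Pla2g3-/-, 2 of 29 were higher after AOM, against 10.3% of all genes, and 10 were lower, against 16.7% of all genes. The family's median log2 AOM/vehicle was 0.84 in Pla2g3+/+ and -0.57 in Pla2g3-/-, beside -0.23 and -0.13 over all genes. KO/WT after AOM and AOM/vehicle in Pla2g3+/+ share the array of Pla2g3+/+ after AOM, so a high signal on it enters both. Between the vehicle arrays and Pla2g3-/- after AOM, which leave that array out, the counts are those given above for KO/WT with vehicle and for AOM/vehicle in Pla2g3-/-.

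**Figure D1:**
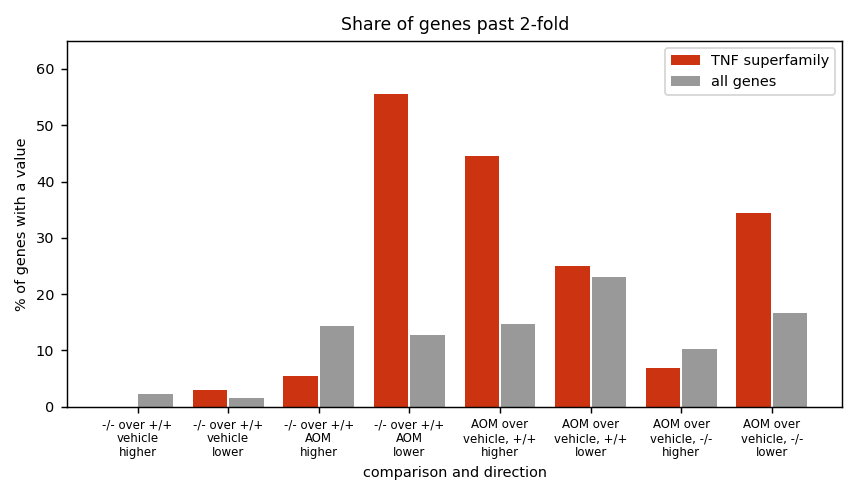
Share of genes with a value that were over 2-fold higher or lower in each of the 4 comparisons of arrays, for the TNF superfamily genes (red) and for all genes (gray), in percent. The tallest red bar is KO/WT after AOM, lower, with 20 of 36 family genes beside 12.7% of all genes.

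**Figure D2:**
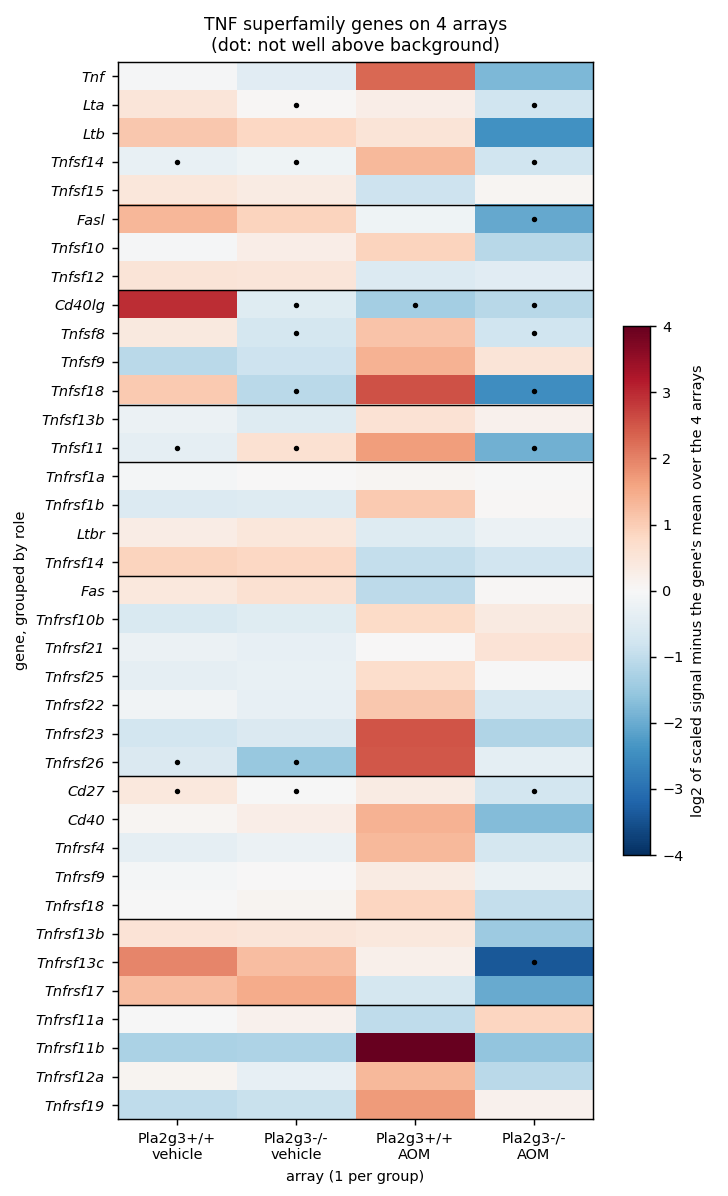
Scaled signal of the 37 kept genes (rows, grouped by role) on the 4 arrays (columns), as the log2 signal minus the mean of the gene over the 4 arrays, with a dot where the signal was not well above background. Tnf, Tnfrsf23 and Tnfrsf11b are red in the column of Pla2g3+/+ after AOM, and Ltb and Tnfrsf17 are blue in the column of Pla2g3-/- after AOM.

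Because Tnf, Tnfrsf23 and Ltb were among the genes furthest apart in KO/WT after AOM, the 250 bases before their start sites are shown, from the RefSeq annotation of GRCm38.p6, together with those before 1 of the start sites of Tnfrsf9, which held the κB consensus more than once. Capitals mark matches to the κB consensus of NF-κB, searched on both strands as GGGRNNYYCC. In this pattern R is A or G, Y is C or T and N is any base. The windows are chr17:35202008-35202257 on the minus strand for Tnf, chr17:35194257-35194506 on the plus strand for Ltb, chr7:143685876-143686125 on the minus strand for Tnfrsf23 and chr4:150927749-150927998 on the plus strand for Tnfrsf9.
Tnf: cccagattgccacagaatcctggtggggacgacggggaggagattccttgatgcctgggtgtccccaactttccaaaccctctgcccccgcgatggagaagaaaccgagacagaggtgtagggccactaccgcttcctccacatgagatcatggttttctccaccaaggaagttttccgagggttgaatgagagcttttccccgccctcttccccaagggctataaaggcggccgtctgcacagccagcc
Ltb: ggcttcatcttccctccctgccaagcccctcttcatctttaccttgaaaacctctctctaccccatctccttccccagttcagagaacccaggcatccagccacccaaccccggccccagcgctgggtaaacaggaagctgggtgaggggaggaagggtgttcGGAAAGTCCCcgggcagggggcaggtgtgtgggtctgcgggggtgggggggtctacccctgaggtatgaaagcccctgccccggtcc
Tnfrsf23: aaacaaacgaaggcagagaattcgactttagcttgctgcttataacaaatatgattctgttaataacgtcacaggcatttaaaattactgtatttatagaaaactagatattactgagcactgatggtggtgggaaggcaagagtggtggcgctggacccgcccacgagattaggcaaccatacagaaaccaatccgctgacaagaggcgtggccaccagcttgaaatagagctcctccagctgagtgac
Tnfrsf9: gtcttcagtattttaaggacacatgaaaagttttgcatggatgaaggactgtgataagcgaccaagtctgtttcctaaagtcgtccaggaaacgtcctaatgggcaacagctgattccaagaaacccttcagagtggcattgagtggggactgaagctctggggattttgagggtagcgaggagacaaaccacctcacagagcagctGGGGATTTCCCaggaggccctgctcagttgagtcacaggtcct
The Ltb window held 1 match, on the minus strand from -87 to -78 relative to the start, and the Tnfrsf9 window held 3 matches that overlap each other. In the windows of Tnf and Tnfrsf23 this pattern was not found. The search did not cover sequence further upstream or sites that depart from the pattern, so it cannot show that these genes lack κB sites. Windows were at hand for 29 of the 37 genes, 33 windows in all, and 3 of them, of Ltb, Tnfrsf25 and Tnfrsf9, held the κB consensus. This was 9.09% of the family's windows, beside 7.25% of 32851 windows of all genes. The AP-1 motif TGANTCA was found in the windows of Fas, Tnfrsf9, Tnfsf13b and Tnfsf14, which was 12.1% of the family's windows and 6.75% of all windows.

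Among the ligands around TNF itself, the genotype labels were far apart after AOM and close with vehicle. Tnf, the main proinflammatory cytokine of the family, had scaled signals of 16.2% in Pla2g3+/+ and 12.1% in Pla2g3-/- with vehicle, and of 82.8% and 4.80% after AOM. This made it 5.11-fold higher after AOM than with vehicle in Pla2g3+/+, 2.53-fold lower after AOM in Pla2g3-/-, and 17.2-fold lower in KO/WT after AOM. Its KO/WT ratio after AOM ranked 124 from the lowest among 19123 genes above background on both arrays. Its probe lies on chromosome 17 from 35336795 to 35336854 in mm9.

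Ltb, the membrane anchor of the lymphotoxin heterotrimer that drives lymphoid follicles, had scaled signals of 97.4% and 81.0% with vehicle in Pla2g3+/+ and Pla2g3-/-, and of 65.3% and 8.59% after AOM. Both vehicle arrays and that of Pla2g3+/+ after AOM lay within 1.49-fold of each other, while the pool labelled Pla2g3-/- after AOM was 7.59-fold below Pla2g3+/+ after AOM and 9.42-fold below its own vehicle pool. Lta, the soluble partner of Ltb, was well above background in Pla2g3+/+ alone, at 3.48% with vehicle and 2.98% after AOM, and was at least 2.03-fold lower in Pla2g3-/- after AOM. Of the 3 neighbors Ltb, Tnf and Lta, Tnf alone was over 2-fold higher in Pla2g3+/+ after AOM.

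Tnfsf14, which encodes LIGHT and signals to the lymphotoxin beta receptor and HVEM, was well above background on the array of Pla2g3+/+ after AOM only, with a scaled signal of 6.75%. That was at least 2.99-fold above Pla2g3+/+ with vehicle and at least 4.22-fold above Pla2g3-/- after AOM. Tnfsf15, which encodes TL1A and costimulates T cells through the death receptor Tnfrsf25, ran the other way. It had scaled signals of 39.4% and 35.9% with vehicle, and of 16.2% in Pla2g3+/+ and 30.5% in Pla2g3-/- after AOM, so that it was 2.44-fold lower after AOM in Pla2g3+/+ and within 2-fold in Pla2g3-/-. The log2 AOM/vehicle ratio in Pla2g3+/+ was within 2-fold without scaling (-0.27). It was also within 2-fold, at -0.90, with normexp background correction and quantile normalization (called normexp below).

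Of the death ligands, Tnfsf10, which encodes TRAIL, had scaled signals of 50.6% and 62.5% with vehicle, and of 96.9% in Pla2g3+/+ and 24.2% in Pla2g3-/- after AOM. Its KO/WT ratio after AOM was 0.25, it was 2.58-fold lower in AOM/vehicle in Pla2g3-/-, and at 1.91-fold higher in Pla2g3+/+ it did not pass 2-fold there. Without scaling, its log2 AOM/vehicle ratio was -0.52 in Pla2g3-/- and 1.96 in Pla2g3+/+. Fasl, the ligand of the death receptor Fas on cytotoxic lymphocytes, had 7.11% and 5.33% with vehicle, 2.51% in Pla2g3+/+ after AOM, and no signal well above background in Pla2g3-/- after AOM. Its signal was lower after AOM in both labelled genotypes, by 2.84-fold in Pla2g3+/+ and by at least 3.64-fold in Pla2g3-/-, and it was at least 1.71-fold lower in KO/WT after AOM. Tnfsf12, which encodes TWEAK, the ligand of Fn14, was at 90.4% and 87.6% with vehicle and at 43.6% and 46.1% after AOM. The genotype labels hardly differed in Tnfsf12, and AOM/vehicle was 2.07-fold lower in Pla2g3+/+ and 1.90-fold lower in Pla2g3-/-. Its log2 AOM/vehicle ratio in Pla2g3+/+ was within 2-fold without scaling (-0.03), with normexp (-0.82) and with its dimmer probe (-0.95).

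Among the costimulatory ligands, Tnfsf9 was the one well above background on all 4 arrays. Tnfsf9, which encodes the ligand of 4-1BB, had scaled signals of 8.53% and 10.1% with vehicle, and of 47.4% in Pla2g3+/+ and 26.0% in Pla2g3-/- after AOM. It was 5.55-fold higher after AOM in Pla2g3+/+ and 2.59-fold higher in Pla2g3-/-. By scaled signals, with Tnfrsf19 it was 1 of 2 family genes over 2-fold higher after AOM under both labels. With normexp both were within 2-fold in Pla2g3-/-, Tnfsf9 at a log2 ratio of 0.82, and Tnfrsf19 also with the mean over its probes or its dimmer probe. Tnfsf18, which encodes the ligand of GITR, had 4.50% in Pla2g3+/+ with vehicle and 12.9% in Pla2g3+/+ after AOM, and was not well above background on either array labelled Pla2g3-/-. It was 2.87-fold higher after AOM in Pla2g3+/+ and at least 8.82-fold lower in KO/WT after AOM. Tnfsf8, which encodes the ligand of CD30, was likewise above background in Pla2g3+/+ alone, at 2.69% with vehicle and 4.52% after AOM, and was at least 3.09-fold lower in KO/WT after AOM. Cd40lg, the signal of helper T cells to B cells, was well above background in Pla2g3+/+ with vehicle only, at 5.15%. It was the 1 family gene past 2-fold in KO/WT with vehicle, at least 2.26-fold lower, and it was at least 4.10-fold lower after AOM in Pla2g3+/+.

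Tnfsf13b, which encodes the B cell survival factor BAFF, was steadier, with scaled signals of 34.5% and 28.3% with vehicle and of 60.5% and 45.5% after AOM, all within 2-fold in the 4 comparisons. Tnfsf11, which encodes RANKL, the ligand of RANK that drives osteoclasts and M cells, was well above background in Pla2g3+/+ after AOM only, at 4.96%. That was at least 2.99-fold above Pla2g3+/+ with vehicle and at least 3.39-fold above Pla2g3-/- after AOM.

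Leukocyte markers differed between the same arrays. The shares over all genes in KO/WT after AOM were 12.7% lower and 14.4% higher. Over 8 macrophage genes, led by Csf1r and C1qc, the summed scaled signal was 1103% and 1414% with vehicle, 2319% in Pla2g3+/+ after AOM and 1064% in Pla2g3-/- after AOM, and 6 of 7 with a value were over 2-fold lower in KO/WT after AOM. For 8 mast cell genes, led by Mcpt4 and Mcpt1, the sum was 200% and 172% with vehicle, 2722% and 180% after AOM, with 6 of 8 over 2-fold lower in KO/WT after AOM. For 10 neutrophil genes, led by Csf3r and S100a9, it was 5568%, 5483%, 9450% and 6220% in the same order, with 5 of 9 over 2-fold lower in KO/WT after AOM and 1, Ly6g, over 2-fold higher. Csf3r made up most of both vehicle sums and stayed between 4441% and 5378%. S100a9 was at 22.4% and 15.5% with vehicle and at 3575% in Pla2g3+/+ and 38.7% in Pla2g3-/- after AOM. The sum over 7 dendritic cell genes, led by Cd83 and Itgax, was 287% and 217% with vehicle and 342% and 79.4% after AOM, with 4 of 6 lower. The part of these cells in the ligands' ratios was not tested.

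**Figure D3:**
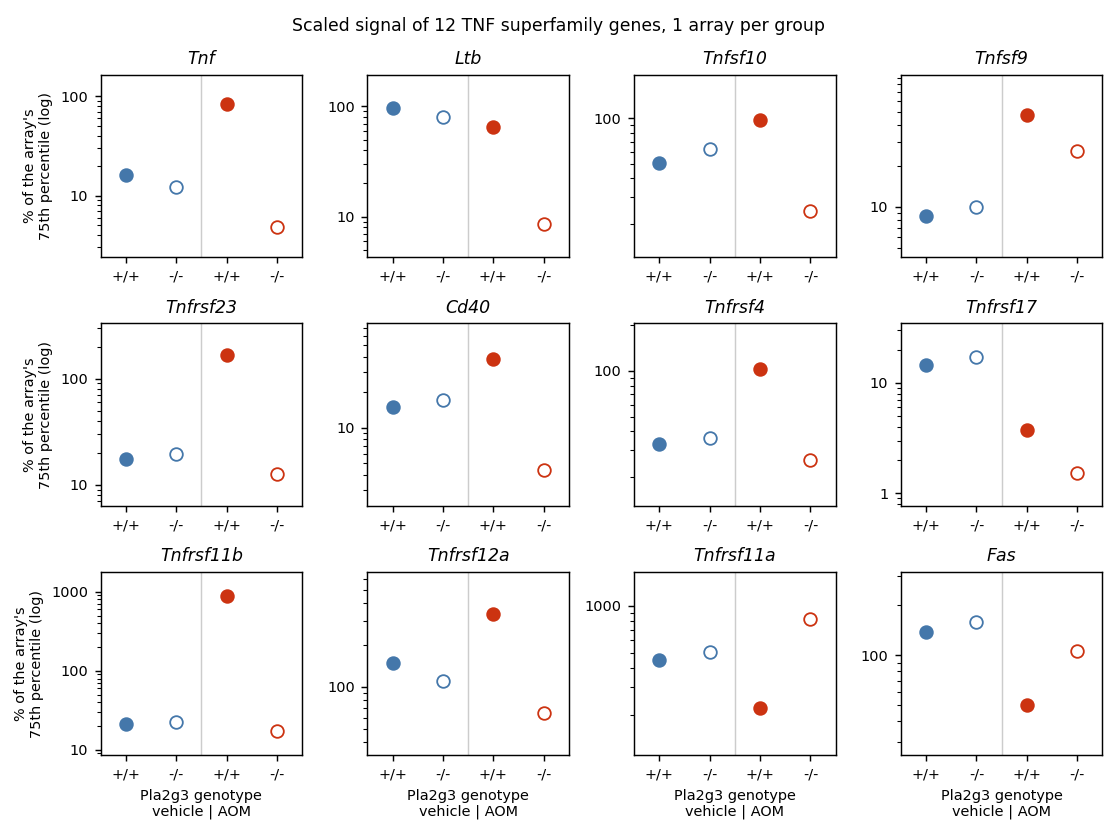
Scaled signal of 12 TNF superfamily genes past 2-fold in at least 1 comparison, on a log axis in percent of the array's 75th percentile, with 1 point for each array (blue, vehicle, red, AOM, filled, Pla2g3+/+, open, labelled Pla2g3-/-). The open red point is the lowest of the 4 in Tnf, Ltb, Tnfsf10, Tnfrsf23, Cd40, Tnfrsf4, Tnfrsf17, Tnfrsf11b and Tnfrsf12a, and the highest in Tnfrsf11a.

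Of the 4 receptors of TNF, lymphotoxin and LIGHT, 0 passed 2-fold in KO/WT under either treatment by their brightest probes. Tnfrsf1a, the death domain receptor for TNF on most cells, had scaled signals between 433% and 476% on the 4 arrays, with log2 ratios between -0.10 and 0.14 in the 4 comparisons. Its 2 probes gave the same picture. Tnfrsf1b, the second TNF receptor, found mainly on leukocytes, was at 10.5% and 10.8% with vehicle and at 31.6% in Pla2g3+/+ and 15.9% in Pla2g3-/- after AOM. It was 3.02-fold higher after AOM in Pla2g3+/+ and stayed just inside 2-fold in KO/WT after AOM, at 1.98-fold lower. Without scaling, its log2 KO/WT ratio after AOM was past 2-fold (-1.15). Ltbr, the lymphotoxin beta receptor of stromal and epithelial cells, had 869% and 967% with vehicle and 499% and 607% after AOM, and did not pass 2-fold. Tnfrsf14, which encodes HVEM, was at 43.6% and 41.4% with vehicle and at 12.2% and 13.7% after AOM. This receptor was lower after AOM under both labels, 3.58-fold in Pla2g3+/+ and 3.01-fold in Pla2g3-/-, and was 1.13-fold apart in KO/WT after AOM. Its dimmer probe was 1.06-fold lower in AOM/vehicle in Pla2g3-/- and 2.34-fold higher in KO/WT after AOM, and the log2 AOM/vehicle ratio in Pla2g3-/- was within 2-fold with the mean over both probes (-0.84), without scaling (-0.74) and with normexp (-0.98).

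The death receptors with a death domain differed in direction from one another. Fas was at 138% and 158% with vehicle, and at 50.1% in Pla2g3+/+ and 106% in Pla2g3-/- after AOM. It was 2.76-fold lower after AOM in Pla2g3+/+ and 2.12-fold higher in KO/WT after AOM, as 1 of the 2 genes higher in that comparison. Its log2 KO/WT ratio after AOM was within 2-fold without scaling (0.92) and with normexp (0.95), as was AOM/vehicle in Pla2g3+/+ without scaling (-0.44). Tnfrsf10b, the mouse TRAIL receptor, had 47.9% and 52.7% with vehicle and 124% and 94.4% after AOM, 2.59-fold higher after AOM in Pla2g3+/+ and 1.79-fold higher in Pla2g3-/-. Tnfrsf25, the receptor of Tnfsf15, was at 30.5% and 31.9% with vehicle and at 63.4% and 38.7% after AOM, 2.08-fold higher after AOM in Pla2g3+/+. Tnfrsf21, which encodes DR6, ranged from 36.0% to 66.4%, with its highest signal in Pla2g3-/- after AOM, and did not pass 2-fold.

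The 3 neighbors on chromosome 7, Tnfrsf22, Tnfrsf23 and Tnfrsf26, encode receptors without a death domain, of which the first 2 are decoys for TRAIL in the mouse. All 3 had their highest signal in Pla2g3+/+ after AOM. Tnfrsf23 was at 17.4% and 19.4% with vehicle and at 165% in Pla2g3+/+ and 12.7% in Pla2g3-/- after AOM, which was 9.48-fold higher after AOM in Pla2g3+/+ and 13.0-fold lower in KO/WT after AOM. Its brightest probe lies at 150851714 to 150851773 in mm9. A second, dimmer probe of Tnfrsf23 was at 8.90% and 4.48% after AOM, 1.99-fold lower in KO/WT, so the 2 probes differ in size. Tnfrsf22 was at 4.54% and 3.98% with vehicle and at 10.6% and 3.16% after AOM, 2.33-fold higher after AOM in Pla2g3+/+ and 3.34-fold lower in KO/WT after AOM. Tnfrsf26 was not well above background with vehicle and was at 14.2% in Pla2g3+/+ and 1.96% in Pla2g3-/- after AOM, at least 8.26-fold above vehicle in Pla2g3+/+ and 7.25-fold lower in KO/WT. The neighbors have related sequences, and whether their probes cross-hybridize was not tested.

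The costimulatory receptors of lymphocytes and antigen-presenting cells were mostly lower in KO/WT after AOM. Cd40, the receptor by which helper T cells activate B cells and macrophages, was at 15.2% and 17.3% with vehicle and at 38.4% in Pla2g3+/+ and 4.36% in Pla2g3-/- after AOM. It was 2.53-fold higher after AOM in Pla2g3+/+, 3.97-fold lower after AOM in Pla2g3-/-, and 8.80-fold lower in KO/WT after AOM. Tnfrsf4, which encodes OX40 of activated and regulatory T cells, had 32.8% and 35.9% with vehicle and 103% and 25.8% after AOM, 3.13-fold higher after AOM in Pla2g3+/+ and 3.98-fold lower in KO/WT after AOM. Tnfrsf18, its neighbor, which encodes GITR, was at 40.6% and 44.0% with vehicle and at 73.8% and 21.0% after AOM, 3.52-fold lower in KO/WT after AOM and 2.10-fold lower in AOM/vehicle in Pla2g3-/-. The log2 ratio of Tnfrsf18 in AOM/vehicle in Pla2g3-/- was within 2-fold without scaling (-0.22) and with normexp (-0.82). Cd27 was well above background in Pla2g3+/+ after AOM only, at 1.63%, and did not pass 2-fold.

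Tnfrsf9, which encodes 4-1BB, gave different results by probe. Its brightest probe ranged from 309% to 468% and was within 2-fold in each comparison. The other probe, from 150319101 to 150319160 on chromosome 4 in mm9, was well above background only in Pla2g3+/+ after AOM, at 7.48%. The level of Tnfrsf9 is therefore uncertain. The window with the overlapping κB matches shown above lies before 1 of the 2 start sites listed for it.

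The receptors for the B cell survival factors BAFF and APRIL were lowest in Pla2g3-/- after AOM. Tnfrsf13b, which encodes TACI, had 51.3% and 49.1% with vehicle, 47.1% in Pla2g3+/+ and 12.8% in Pla2g3-/- after AOM, 3.67-fold lower in KO/WT after AOM. Its brightest probe does not carry an accession of that gene in the RefSeq table. The other probes of the gene do, and were within 2-fold in KO/WT after AOM. The next probe, at 8.94% and 5.78% after AOM, was 1.55-fold lower, and the dimmest, at 1.80% and 1.77%, 1.02-fold lower. With the mean over the probes the log2 ratio of Tnfrsf13b was -0.85, so its place among the lower genes rests on the brightest probe. Tnfrsf13c, the BAFF receptor of mature B cells, was at 20.0% and 12.1% with vehicle and at 5.85% in Pla2g3+/+ after AOM, and was not well above background in Pla2g3-/- after AOM. Its signal was 3.41-fold lower after AOM in Pla2g3+/+ and at least 8.27-fold lower in Pla2g3-/-, whereas its dimmer probe changed by less than 2-fold. Tnfrsf17, which encodes BCMA of plasma cells, had 14.4% and 17.3% with vehicle and 3.77% and 1.53% after AOM, 3.83-fold lower after AOM in Pla2g3+/+, 11.3-fold lower in Pla2g3-/- and 2.46-fold lower in KO/WT after AOM.

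Markers of lymphocytes were lower on the same array. Beside the counts below, the shares over all genes in KO/WT after AOM were 12.7% lower and 14.4% higher. The summed scaled signal of 8 B cell genes, led by Cd79b and Ms4a1, was 315% and 240% with vehicle and 108% in Pla2g3+/+ and 23.1% in Pla2g3-/- after AOM, and 5 of 7 with a value were over 2-fold lower in KO/WT after AOM and 1, Pax5, over 2-fold higher. For 6 plasma cell genes, led by Jchain and Xbp1, the sum was 9989% and 9634% with vehicle and 5547% and 1979% after AOM, with 5 of 6 lower. For 8 T cell genes, led by Lck and Cd3e, it was 562% and 528% with vehicle and 413% and 139% after AOM, with 6 of 8 lower. For 9 genes of cytotoxic and NK cells, led by Gzma and Nkg7, it was 1171% and 1353% with vehicle and 220% and 166% after AOM, with 5 of 7 lower. The 5 genes of lymphoid follicle stroma on the array, led by Cxcl13 and Madcam1, summed to 166% and 186% with vehicle and to 124% and 67.7% after AOM, and 2 of 4 with a value were lower in KO/WT after AOM and 1 higher. Their part in the ratios of Ltb, Fasl and the receptors of lymphocytes was not tested.

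RANK and osteoprotegerin, a signalling and a decoy receptor of the same ligand, were furthest apart in the family after AOM, in opposite directions. Tnfrsf11b, which encodes osteoprotegerin, the secreted decoy of RANKL and TRAIL, was at 21.6% and 22.3% with vehicle, 884% in Pla2g3+/+ after AOM and 17.3% in Pla2g3-/- after AOM. Only 1 of the 4 arrays was high, 41.0-fold above the vehicle pool of the same genotype and 51.0-fold above the pool labelled Pla2g3-/- after AOM. Its AOM/vehicle ratio in Pla2g3+/+ ranked 43 from the highest among 19119 genes above background on both arrays, and its KO/WT ratio after AOM ranked 42 from the lowest among 19123. Its probe lies on chromosome 15 from 54082760 to 54082819 in mm9.

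Tnfrsf11a, which encodes RANK, had scaled signals of 446% and 507% with vehicle, 221% in Pla2g3+/+ and 819% in Pla2g3-/- after AOM. It was 3.71-fold higher in KO/WT after AOM, the other gene higher in that comparison beside Fas, and 2.02-fold lower after AOM in Pla2g3+/+, a direction that was not kept without scaling of the arrays. That log2 AOM/vehicle ratio was within 2-fold with quantile normalization (-0.81) and with normexp (-0.80). Its probe lies on chromosome 1 from 107741892 to 107741951 in mm9. Scaled to the 75th percentile, Tnfrsf11a and Tnfrsf11b were opposite in each of the comparisons that hold the array of Pla2g3+/+ after AOM. Their KO/WT ratios with vehicle were 1.14-fold and 1.03-fold, both slightly higher.

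Tnfrsf12a, which encodes Fn14, the receptor of Tnfsf12 that is known from wounded and regenerating tissue, was at 148% and 110% with vehicle, 334% in Pla2g3+/+ and 64.7% in Pla2g3-/- after AOM. It was 2.26-fold higher after AOM in Pla2g3+/+ and 5.16-fold lower in KO/WT after AOM, while its ligand Tnfsf12 was 1.06-fold higher in KO/WT after AOM. Tnfrsf19, which encodes TROY, a Wnt target expressed in intestinal stem cells, was at 18.6% and 20.1% with vehicle and at 122% and 42.3% after AOM. It was 6.58-fold higher after AOM in Pla2g3+/+ and 2.11-fold higher in Pla2g3-/-, and 2.89-fold lower in KO/WT after AOM. The second probe of Tnfrsf19 was 2.11-fold lower in KO/WT after AOM, but at least 1.28-fold higher in AOM/vehicle in Pla2g3-/-, where the log2 ratio was 0.80 with the mean over both probes and 0.74 with normexp.

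**Figure D4:**
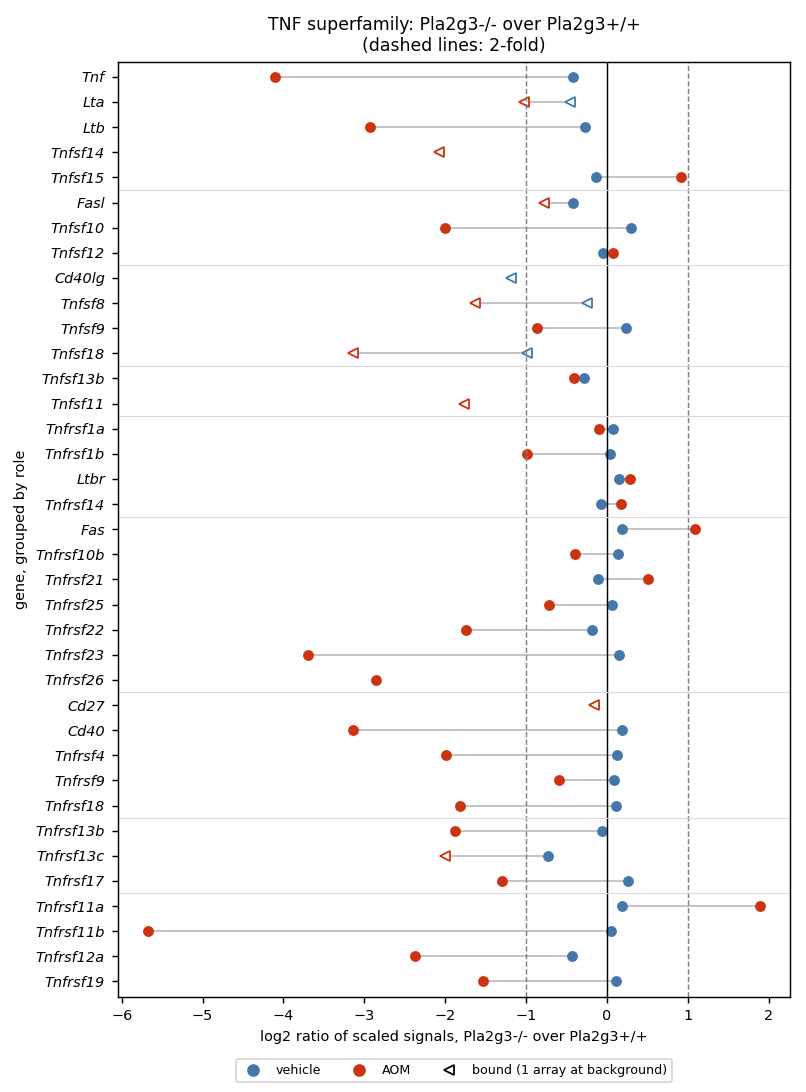
Log2 ratio of scaled signals, the array labelled Pla2g3-/- over that labelled Pla2g3+/+, for each gene with vehicle (blue) and after AOM (red), with dashed lines at 2-fold and open triangles for bounds. Most blue points lie near 0, but the bound of Cd40lg lies past the left dashed line and that of Tnfsf18 just inside it. Of the red points, 20 lie below the left dashed line and 2, Fas and Tnfrsf11a, above the right one.

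**Figure D5:**
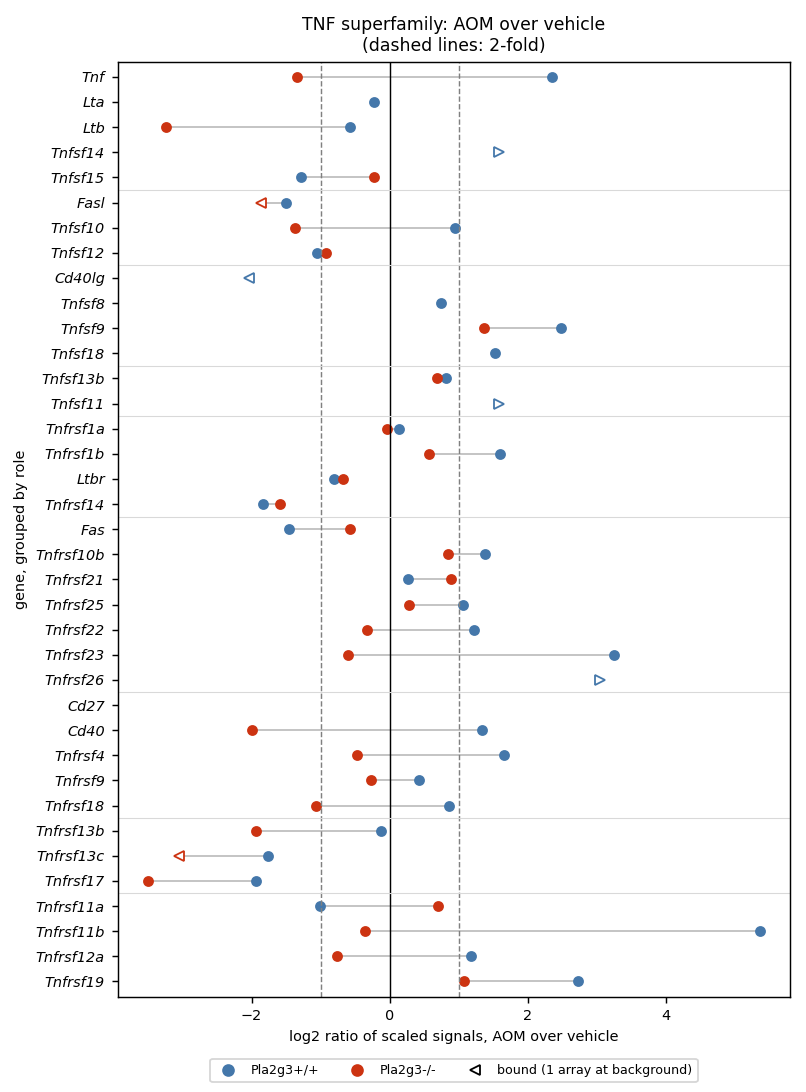
Log2 ratio of scaled signals, AOM over vehicle, for each gene in Pla2g3+/+ (blue) and in the pools labelled Pla2g3-/- (red), with dashed lines at 2-fold and open triangles for bounds. Tnf and Cd40 lie past 2-fold to the right in Pla2g3+/+ and to the left in Pla2g3-/-, and the point of Tnfrsf11b in Pla2g3+/+ is the furthest to the right.

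Several sets of epithelial and other tissue markers differed between the same arrays. Over 8 colonocyte genes, led by Car1 and Krt20, the summed scaled signal was 39732% and 45425% with vehicle and 6378% in Pla2g3+/+ and 29118% in Pla2g3-/- after AOM, with 6 of 8 over 2-fold higher in KO/WT. For 8 fibroblast genes, led by Dcn and Col1a2, it was 4023% and 4530% with vehicle and 11617% and 8632% after AOM, and for 8 endothelial genes, led by Kdr and Vwf, 650% and 693% with vehicle and 779% and 537% after AOM. For 8 proliferation genes, led by Mki67 and Plk1, it was 1109% and 1684% with vehicle and 2277% and 1846% after AOM. In KO/WT after AOM, 2 of 8 fibroblast genes were higher and 3 lower, 3 of 8 endothelial genes were lower, and 1 of 8 proliferation genes was lower. The shares over all genes were 14.4% higher and 12.7% lower, so the proliferation count was near the share of all genes. The 8 genes of squamous epithelium, led by Krt5 and Trp63, summed to between 611% and 761% on 3 arrays and to 2379% in Pla2g3-/- after AOM. Of 7 with a value in KO/WT after AOM, 1 was higher, near the share of all genes, and 2 were lower. With vehicle, the array labelled Pla2g3-/- held 880% over 7 exocrine pancreas genes, led by Ctrb1 and Cpb1, beside 35.6% in Pla2g3+/+, and 3884% over 7 adipocyte genes, led by Cfd and Fabp4, beside 1863%. Of those with a value, 7 of 7 pancreas and 1 of 6 adipocyte genes were over 2-fold higher there, against 2.23% of all genes. The part of these in the family's values was not tested.

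Of 35 genes of TNF receptor signalling, TRAF adaptors, ubiquitin ligases, IκB kinases and NF-κB subunits and inhibitors, 0 of 34 with a value passed 2-fold in KO/WT with vehicle, against 2.23% higher and 1.55% lower of all genes. After AOM, 2 of 34 were higher in KO/WT and 2 were lower, against 14.4% and 12.7% of all genes, and the median log2 ratio was -0.18. Tnip1, an inhibitor of NF-κB signalling, was 2.95-fold higher, Tradd, the adaptor of the TNF receptor death domain, 2.64-fold higher and Rnf31, a subunit of the linear ubiquitin ligase, 1.51-fold higher. Nfkbie, an inhibitor of NF-κB that is itself an NF-κB target, was 4.50-fold lower, Traf1 2.11-fold lower and Ikbkg, the regulatory subunit of the IκB kinase, 1.59-fold lower.

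In AOM/vehicle in Pla2g3+/+, 4 of 35 genes of that list were higher and 2 were lower, against 14.7% and 23.0% of all genes. Traf3, a TRAF that restrains noncanonical NF-κB, was 2.51-fold higher, Traf6 2.40-fold higher and Nfkbie 2.20-fold higher, with Ikbkb, a catalytic subunit of the IκB kinase, at 2.17-fold. Tradd was 2.73-fold lower, Traf5 2.09-fold lower and Tnip1 1.92-fold lower. In Pla2g3-/-, 0 of 34 were higher after AOM and 2, Traf1 and Nfkbie, were lower, against 10.3% and 16.7% of all genes. Nfkbie had scaled signals of 29.2% and 29.5% with vehicle and of 64.2% and 14.3% after AOM. Of the genes downstream of the death receptors, Ripk3, the kinase of necroptosis, was 2.23-fold lower in KO/WT after AOM. Among 6 members of the superfamilies and their partners whose names are not of the pattern used here, Eda and Ngfr were higher in KO/WT after AOM, by 3.62-fold and 2.81-fold, and Relt at least 2.72-fold lower.

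The one test that the design allows, an additive limma model with a treatment and a genotype term over the 4 arrays and 1 residual degree of freedom, asks for a change that is alike in both strata. At an adjusted p under 0.05 it called 0 of 22707 genes (0%) for treatment and 0 (0%) for genotype, and so 0 family genes in either term. At an unadjusted p under 0.05 the treatment term held 3582 genes (15.8%) and 6 of the 37 family genes, Tnfrsf14, Tnfrsf17, Tnfsf9, Fasl, Tnfsf12 and Tnfrsf13c. Of these, Fasl and Tnfrsf13c were not well above background in Pla2g3-/- after AOM, so their p-values rest in part on background signals. The genotype term held 308 genes (1.36%) and, of the family, Tnfsf8 and Tnfsf18, neither of which was well above background on the arrays labelled Pla2g3-/-, so that their p-values rest on background signals. The smallest adjusted p of limma in the family was 0.316 for treatment and 0.99 for genotype. A difference between the labelled genotypes that appears only after AOM, as in Tnf, Ltb, Cd40 and Tnfrsf11b, enters this fit in part as error. Over the 27 genes measured on all 4 arrays, the KO/WT ratio after AOM was lower than that with vehicle by 52.7-fold in Tnfrsf11b, 14.5-fold in Tnfrsf23, 12.9-fold in Tnf and 10.1-fold in Cd40, and was higher by 3.26-fold in Tnfrsf11a. With 1 array per group these ratios of ratios have no error and were not tested.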

How the data were processed

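Colon RNA pooled within a group was measured on 4 Agilent arrays of 60-base probes on 1 slide, 1 per group, from 27.7 ng of RNA each, with groups taken from the deposited labels. The authors deposited the processed spot intensity written by Feature Extraction, version 11.5.1.1 (by its headers, background-subtracted, detrended and unscaled between arrays), with its p-value against background and a flag for signals well above background, which was used as given. The deposited series table gives a ratio, in which the authors set each intensity against 1 constant per array, close to the 75th percentile of that array. Probe positions are those of the array files (mm9).

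Control spots and outlier-flagged spots were left out, replicate spots were averaged as log2 intensity, and the 75th percentile of each array (intensities of 646 and 649.8 with vehicle and 1309 and 1169 after AOM, Pla2g3+/+ first) was subtracted. No spot was saturated. A gene was its brightest probe. Of the 40 family genes, 39 had a brightest probe whose accession bears that symbol in the RefSeq table of GRCm38.p6, and 10 had several probes. Ratios between 2 arrays were counted past 2-fold. limma 3.58.1 in R 4.3.3, with Benjamini-Hochberg adjustment, gave the one test, and was tested on simulated data. The simulated treatment changes were alike in both genotypes, so that check cannot show the power for a change that differs between them. Other steps used Python 3.11.15, pandas 2.3.3 and numpy 2.4.6. The number of arrays limits the precision.

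The members, marker lists and signalling lists were chosen with earlier results of these data known. Each kept member is named in order of role, with all signals where it passed 2-fold, and each list with its counts or sums and its 2 brightest genes or 3 largest changes in each direction. Alternatives were no scaling, scaling by the median, quantile normalization, normexp (offset 50) with quantile normalization after it, the deposited table, keeping dim probes, requiring both arrays above background, averaging the probes of a gene, the dimmest probe above background and, for limma, an intensity trend. The slide as a block was not run, since all arrays lay on 1 slide. Promoter windows were read from RefSeq, GRCm38.p6. No columns of other samples were used. Part of the death receptor signalling list is not reported here.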

Additional observations from a re-analysis of the deposited data

Results flagged for a closer look

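In 2 genes of the family, AOM/vehicle was past 2-fold in opposite directions under the genotype labels. The log2 ratio of Tnf was 2.35 in Pla2g3+/+ and -1.34 in the pools labelled Pla2g3-/-, and that of Cd40 was 1.34 and -1.99. The ratio of Tnf in Pla2g3-/- was within 2-fold without scaling (-0.49) and with normexp (-0.60), and that of Cd40 in Pla2g3+/+ with normexp (0.87). With 1 array per group the difference between the labels was not tested, and Pla2g3 itself went against these labels.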

How the results depend on the processing

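No paired analysis was possible because each group had 1 array. Scaling by the median of the array and quantile normalization kept each family count within 1.5 times its value. The deposited table gave the same family counts, which was fixed in advance. Its constant for each array was nearly the 75th percentile used here, 645.7 beside 645.6 in Pla2g3+/+ with vehicle, so it repeats the same scaling. Without scaling, the median log2 AOM/vehicle over all genes above background on both arrays moved from -0.22 to 0.80 in Pla2g3+/+ and from -0.15 to 0.69 in Pla2g3-/-. The family count in Pla2g3+/+ was then 23 higher and 1 lower in place of 16 and 9, and in Pla2g3-/- 8 higher and 6 lower in place of 2 and 10, while KO/WT after AOM had 1 higher and 22 lower. Among all genes, 9389 were then higher and 1459 lower of 21578 in Pla2g3+/+, and 7733 and 924 of 21009 in Pla2g3-/-. In KO/WT after AOM these were 2582 and 3267 of 21661. Tnfrsf11a turned to a log2 ratio of 0.00494 in AOM/vehicle in Pla2g3+/+. Fas, Fasl, Tnfsf12, Tnfsf15, Tnfrsf13c, Tnfrsf14 and Tnfrsf17 were also within 2-fold there without scaling. So were Tnf, Tnfsf10, Tnfrsf14 and Tnfrsf18 in AOM/vehicle in Pla2g3-/-. Other genes passed 2-fold without scaling. In AOM/vehicle in Pla2g3-/-, Tnfrsf10b (log2 ratio 1.69), Tnfrsf11a (1.54), Tnfrsf1b (1.41) and Tnfrsf25 (1.13) were then higher. In Pla2g3+/+, Tnfsf10, Tnfrsf18 and Tnfsf8 were then higher. Tnfrsf1b (-1.15) and Tnfsf9 (-1.03) were then lower in KO/WT after AOM. Normexp with quantile normalization, whose offset draws dim signals together, left 0 lower in KO/WT with vehicle, 1 higher and 13 lower in KO/WT after AOM, 9 higher and 2 lower in AOM/vehicle in Pla2g3+/+, and 0 higher and 5 lower in Pla2g3-/-. Counts over all genes with normexp were 145 higher and 110 lower of 20628 in KO/WT with vehicle, and 1688 and 1571 of 21649 after AOM. In AOM/vehicle they were 2084 and 1933 of 21936 in Pla2g3+/+, and 1160 and 1149 of 20967 in Pla2g3-/-. Among the genes that were then within 2-fold in KO/WT after AOM were Lta, Tnfsf8, Tnfsf11, Tnfsf14, Tnfrsf13c, Tnfrsf17 and Tnfrsf22. In AOM/vehicle in Pla2g3+/+, normexp also brought Cd40, Cd40lg, Fasl, Tnfsf11, Tnfsf12, Tnfsf14, Tnfsf15, Tnfsf18, Tnfrsf1b, Tnfrsf11a, Tnfrsf13c, Tnfrsf17, Tnfrsf22 and Tnfrsf25 within 2-fold. In AOM/vehicle in Pla2g3-/- it did so for Fasl, Tnf, Tnfsf9, Tnfrsf13c, Tnfrsf14, Tnfrsf18 and Tnfrsf19. With genes above background on both arrays alone, 0 were lower in KO/WT with vehicle, and 2 were higher and 14 lower in KO/WT after AOM. In AOM/vehicle, 13 were then higher and 8 lower in Pla2g3+/+, and 2 higher and 8 lower in Pla2g3-/-. Of all genes, 2546 were higher and 3965 lower of 19119 in Pla2g3+/+, and 1691 and 2757 of 18554 in Pla2g3-/-. With no filter on dim probes 3 were lower in KO/WT with vehicle and 4 were higher in AOM/vehicle in Pla2g3-/-, and with the mean over probes or the dimmest probe 1 was higher there. For all genes, the unfiltered counts in these comparisons were 779 lower and 2820 higher of 22707. In AOM/vehicle in Pla2g3-/-, 2059 of 20442 were higher with the mean and 2234 of 20104 with the dimmest probe. The dimmest probe also brought Tnfrsf13b, Tnfrsf13c and Tnfrsf23 within 2-fold in KO/WT after AOM and put Tnfrsf14 over 2-fold higher, at a log2 ratio of 1.23. Over all genes, AOM/vehicle in Pla2g3+/+ split into 3202 higher and 5005 lower, into 3745 and 3821 after quantile normalization, and into 2084 and 1933 with normexp. limma, run also with quantile normalization, normexp and an intensity trend, called 0 genes each time, with 91 to 321 genes for genotype and 3025 to 4427 for treatment at an unadjusted p under 0.05.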
